A study of Oncorhynchus mykiss with 30 samples.

Results

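The 194 probes described here had higher group means in gonads of all-male rainbow trout from the lowest concentration of ethynylestradiol (EE2) on. EE2 is a synthetic oestrogen that acts through the nuclear oestrogen receptors. In trout the gonad differentiates early in life, oestrogens made by aromatase are needed for an ovary to form, and an oestrogen given to genetic males in this period can turn the testis partly or wholly towards an ovary. Since each array was hybridised with RNA of whole gonads, more cells of a type and more RNA per cell cannot be told apart.

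The members were chosen by measured values, from the log2 table that the authors deposited. A probe was kept when its mean at 10 μg/L was at least 8, its mean at 0.01 μg/L was at least 1 above the control, and its means at 1 and 10 μg/L were no lower than at 0.01 μg/L. The 224 probes of a smaller custom design were not ranked by the rule. Of the 59971 probes ranked, 1226 met these conditions. They were ordered by the smallest of the 4 exposed means minus the control mean, the first 200 were taken, and 6 were left out by name. This left 194 of the 60195 probes on the array. With the same rule on the normalised scanner signal, 192 of them again stood among the first 200. The last 3 members inside the limit, TC107919, TC118046 and TC107895, had differences of 2.37, 2.37 and 2.36 in the authors' values between the smallest exposed mean and the control mean, and the first 3 outside, CUST_2515_PI425536763, CUST_7913_PI425536763 and CUST_3963_PI425536763, had 2.36 each.

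Fry were kept from 60 to 136 days post-fertilisation in water with the solvent alone or with nominally 0.01, 0.1, 1 or 10 μg/L, which is 76 days of exposure. Each of the 5 groups had 3 tanks, 2 pools of 10 pairs of gonads were made per tank, and the RNA of each pool went on 1 single-color Agilent array, so that n = 6 arrays per group and 30 in all. The concentrations measured in the water were 0.08 ± 0.06 (SD), 1.62 ± 1.74 and 9.88 ± 5.06 μg/L for the 3 higher groups, and 0.01 μg/L lay below the detection limit of 0.02 μg/L. The replicates are pools of fish, with 2 pools sharing a tank, and they do not show the spread between single fish. Contrasts of the 4 exposed groups with the control are called CT1 to CT4, from the lowest concentration to the highest, and a probe is called over- or under-expressed at an adjusted p below 0.05 in limma. Levels are log2 of the quantile-normalised signal, and they are compared only within a probe, since the signal of a probe also depends on its own sequence.

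None of the 194 members carries a gene name. The rule did not rank the 224 probes of the smaller custom design, of which 60 carry the name of a gene or a protein. This absence was therefore partly fixed by the rule. Their identifiers are 139 TC numbers and 55 custom names of the design. None of the 46 marker symbols listed for testis, ovary, oocyte, blood, liver, immune cells and muscle matched the whole name of a probe. Names with a suffix or in another form were not searched, and the paper counts dmrt1 among the genes on the chip. The tissue label was thus not checked against markers, and an absence of marker probes is not shown. Within the custom names, 29 of the 183 members that share the split between controls described next, the larger set, have a name that begins with GAY7CUQ, which is 15.8% of them, against 3.54% of all probes (2129). TC numbers made up 71.6% of the same set and 52.0% of the array. These shares are descriptions of the names, without a test.

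The control arrays stood apart from each other on these probes. Over the 194 members, the median level of the control arrays was 5.25 on replicate 1, 7.96 on replicate 3, 7.63 on replicate 4 and 6.70 on replicate 5, but 12.84 on replicate 2 and 13.26 on replicate 6. At 0.01 μg/L the lowest of the 6 array medians was 10.76, the middle of them 12.83 and the highest 13.23. A pair of control pools thus lay at the level of the fish exposed to 0.01 μg/L, and the description of the members as induced from 0.01 μg/L fits 4 of the 6 control pools. Replicate 1 came from the same tank as replicate 2, and replicate 5 from the same tank as replicate 6, so that pools of the same tank differed by 7.58 and 6.56. In the authors' table the labels of 3 pairs of arrays are exchanged within a concentration, among them replicates 2 and 4 of the control, and there the high arrays carry the numbers 4 and 6, which places the first of them in tank 2, again beside a low pool. The labels of the scanner files are used throughout.

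**Figure D1:**
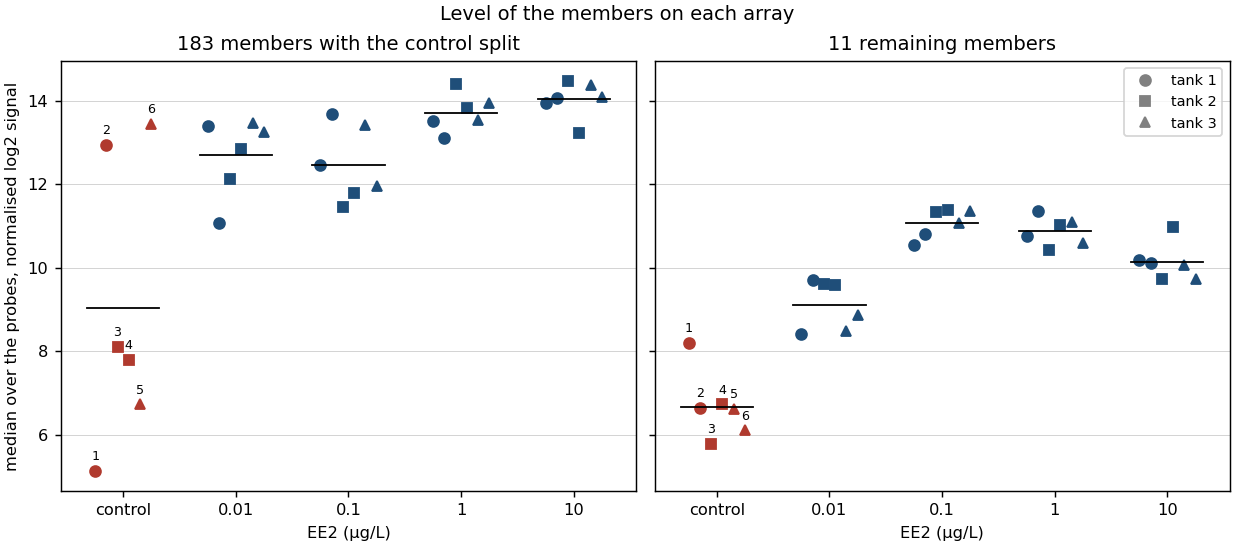
Median normalised log2 signal of the members on each of the 30 arrays, for the 183 members in which control replicates 2 and 6 stand apart (left) and the 11 others (right). Symbols give the tank, lines the mean of the 6 arrays, and numbers the control replicates, of which 2 and 6 reach 12.95 and 13.45 on the left and 6.64 and 6.11 on the right.

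This split ran through nearly the whole list. In 183 of 194 members (94.3%), both of these control arrays were at least 2 on the log2 scale above each of the other 4 controls, against 1.15% of all probes on the array. The gap between them had a median of 4.37 in the 183 members and reached 8.09. Only 2 probes of the array had the opposite order with a gap of that size. The authors' values gave the gap in 183 members as well, and scaling to the 75th percentile gave it in 182. These arrays were singled out after their values had been seen, and the control mean is part of the rule that chose the members, so no test was made of the split.

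For a closer look at these 183 members, their array medians in the control were 5.13 at the lowest, 7.96 in the middle and 13.45 at the highest. They were 11.06, 13.05 and 13.47 at 0.01 μg/L and 11.45, 12.21 and 13.69 at 0.1 μg/L. They were 13.10, 13.69 and 14.40 at 1 μg/L and 13.24, 14.08 and 14.48 at 10 μg/L. The 4 low controls lay below every exposed array by this measure, while the 2 high controls lay within the range of the arrays of both lower concentrations, and the higher of them also within that of both higher ones. On control replicate 6, 176 of the 183 members were at or above their own mean at 0.01 μg/L, and on control replicate 2, 153 were. The number was 0 on each of the other 4 controls. The set was defined by these arrays and the shares over all probes are not given, so these numbers are descriptions.

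**Figure D2:**
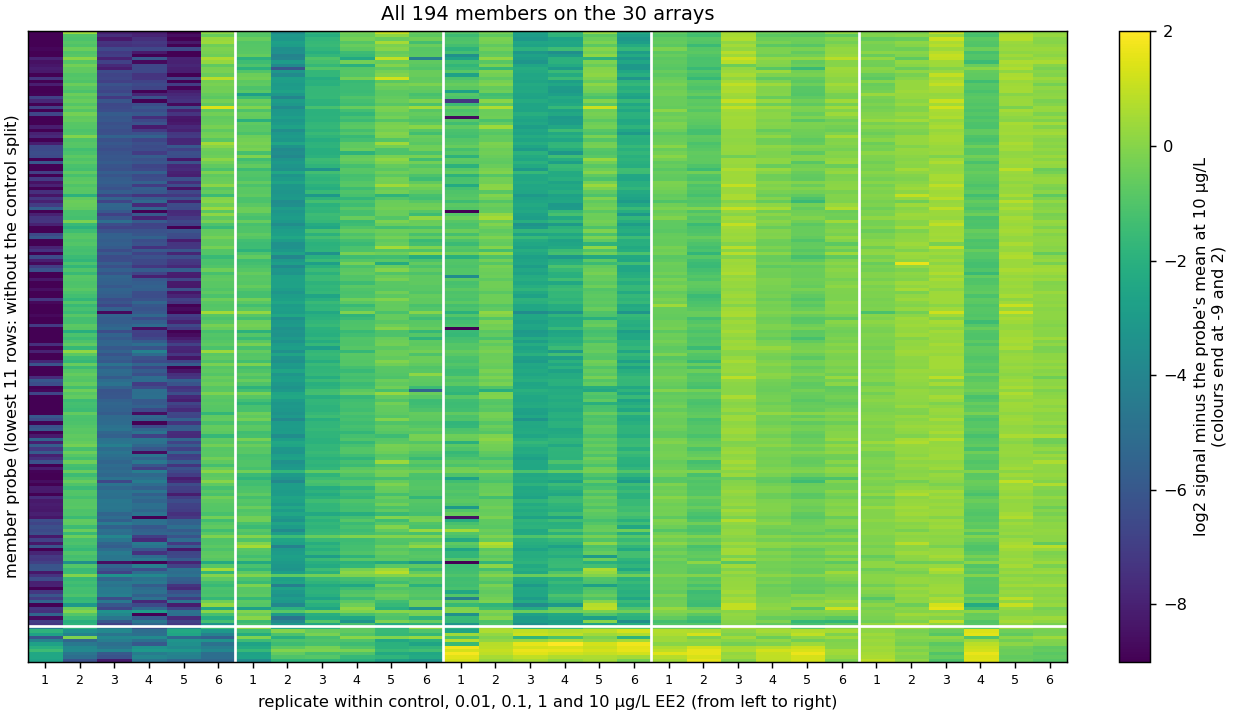
Each row is 1 of the 194 members and each column 1 array, coloured by log2 signal minus the mean of the probe at 10 μg/L, with white lines between the groups. Control replicates 2 and 6 have the colours of the exposed arrays in the 183 upper rows and not in most of the 11 lower ones, and replicate 1 at 0.1 μg/L has 8 members far below the rest of its group.

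TC125917, the first by rank, showed the pattern in full. Its level in the control was 1.71, 5.33, 5.20 and 3.39 on replicates 1, 3, 4 and 5 and 13.71 and 13.43 on replicates 2 and 6. It lay between 9.77 and 14.33 at 0.01 μg/L, with a median of 12.68. Both high controls were above 5 of the 6 arrays at 0.01 μg/L, and the low ones were far below all of them. TC125917 was well above background on 4 of the 6 control arrays. TC115508, the second by rank, was at 5.93, 10.27, 10.31 and 7.53 on the low controls and at 15.06 and 15.47 on the high ones, against 13.91 to 15.99 at 0.01 μg/L. The members ranked 3 to 10, TC98337, TC101678, CUST_23086_PI425536763, TC110341, TC119341, TC130079, TC127744 and TC125696, had the same split. TC125917, TC130079 and TC119341 had the largest spread within the control among all members.

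The members with the highest signal at 10 μg/L were TC101806, TC99014 and CUST_21983_PI425536763. TC101806 was between 11.17 and 15.20 on the 4 low controls and at 18.50 and 18.54 on the high ones, against 17.85 to 18.58 at 0.01 μg/L. CUST_21983_PI425536763 was between 9.68 and 13.96 on the low controls, at 17.45 and 17.82 on the high ones and between 17.79 and 18.04 at 10 μg/L. No spot on any array was marked as saturated. The SD of TC101806 was 0.05 at 1 μg/L and 0.04 at 10 μg/L, against medians of 0.45 and 0.49 over all members. Whether differences are compressed at the top of the signal scale was not tested. All 194 members were well above background on all 6 arrays at 1 and at 10 μg/L and 191 on all 6 at 0.01 μg/L, but 125 on all 6 control arrays. The low control values of the other 69 are therefore partly set by the background.

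Against the control, limma called 187 members over-expressed in CT1 (96.4%, against 2.83% of all probes), 187 in CT2 (12.8% of all probes), 194 in CT3 (19.8%) and 194 in CT4 (21.7%), and none under-expressed (5.09%, 14.3%, 21.2% and 22.5% of all probes). The rule used these contrasts, and nothing is read from the counts. The median log2 fold change of the members was 3.43, 3.42, 4.53 and 4.80, against -0.02, -0.003, -0.02 and -0.03 over all probes. Without control replicates 2 and 6, left out after their values had been seen, it was 5.44, 5.34, 6.48 and 6.80. Leaving out the highest controls raises these differences by construction, and no count is read from that fit. The count in CT1, likewise only a description, was 105 without control replicate 1 and 108 without control replicate 5. Counts over all probes in these fits are not given, and nothing is read from the change. By single arrays, 4 members had all 6 arrays at 0.01 μg/L above every control (2.06%, against 0.965% of all probes), 8 had this at 0.1 μg/L (4.84% of all probes), 48 at 1 μg/L (7.82%) and 73 at 10 μg/L (7.28%). For 56 members not a single array at 0.01 μg/L exceeded the highest control. The share of all probes with this is not given, and nothing is read from the number. Against the 4 other controls alone the counts of members with all 6 arrays above were 187 at 0.01 μg/L (5.71% of all probes), 187 at 0.1 μg/L (9.95%), 194 at 1 μg/L (18.3%) and 194 at 10 μg/L (17.5%). These 4 controls were singled out as the low ones on the members. The counts are therefore high by construction, and nothing is read from them.

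The slide on which a pool was hybridised moved with the split. Slides 1 and 3 each held 1 control, replicate 2 and replicate 6, while replicate 5 was on slide 2 and replicates 1, 3 and 4 on slide 4. Within slides 1 and 3 the median difference of the members between 0.01 μg/L and the control was -0.45 and -0.11, and within slides 2 and 4 it was 5.17 and 5.64. For 0.1 μg/L the within-slide medians were -0.06 and -0.55 on slides 1 and 3 and 5.48 and 4.79 on slides 2 and 4. For 1 μg/L they were 0.82 and 0.02 against 7.38 and 6.40, and for 10 μg/L 1.28 and 1.09 against 6.55 and 6.88. With the slide as a block, the median in CT1 was 2.97. There 121 members were called. The rule used this contrast and the count over all probes in that fit is not given, so nothing is read from the number. Among the arrays at 0.01 μg/L the medians were 13.04, 10.76 and 13.23 on slide 1 and 13.10 on slide 3, against 12.05 on slide 2 and 12.63 on slide 4, so that 3 of the 4 arrays on slides 1 and 3 were higher than both others and replicate 2 was lower. At 0.1 μg/L slides 1 and 3 had 12.41, 13.50 and 11.77, against 11.42, 13.25 and 11.90 on slides 2 and 4. At 1 μg/L these medians were 13.65, 13.00 and 13.39 against 14.30, 13.33 and 13.89. At 10 μg/L they were 14.39, 13.98 and 14.28 against 13.80, 13.01 and 14.02. The order of the slides thus differed between the exposed groups. For the controls, slide and pool cannot be told apart.

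The brightness of the arrays, taken as the 75th percentile of the processed signal before normalisation, also moved with the 183 members. Control replicates 2 and 6 were the brightest controls, at 1238 and 819, against 359 to 671 on the others. Over all 30 arrays, deviations of the median of the 183 members from the group mean had a Pearson correlation of 0.57 (Spearman 0.71) with those of the log2 brightness. Over the 24 exposed arrays it was 0.71 (Spearman 0.72). Within the 6 controls it was 0.62 (Spearman 0.43). Within the exposed groups it was 0.74, 0.89, 0.41 and 0.57, from 0.01 to 10 μg/L. Taken probe by probe over the exposed arrays, the median correlation was 0.64 in the 183 members and -0.03 over all probes. The order was not the same on every array. Replicate 3 at 0.1 μg/L, at a brightness of 554, had the lowest member median of its group. Replicates 4 and 6 there were dimmer, at 468 and 493. At 0.01 μg/L replicate 2, at a brightness of 648, was lower than replicate 3, which was dimmer at 556. The part of brightness in the split was not tested.

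**Figure D3:**
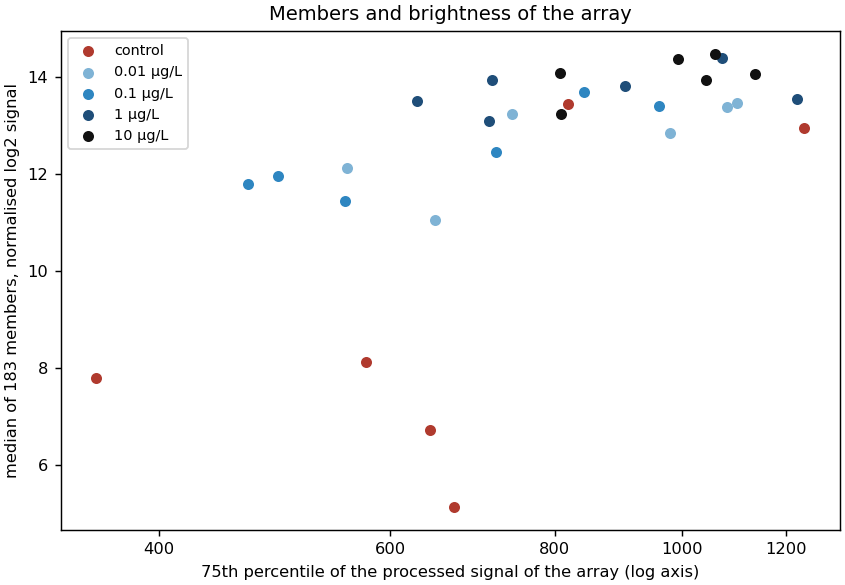
Median normalised log2 signal of the 183 members against the 75th percentile of the processed signal of each array, on a log axis, with 1 point per array coloured by concentration. The 4 low controls lie at 359 to 671, and control replicates 2 and 6 at 1238 and 819. Exposed arrays differ from the controls in EE2 as well, and the part of brightness was not tested.

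Among the exposed groups the 183 members largely moved together. Their within-group deviations over the 24 exposed arrays had a median pairwise correlation of 0.83, with 0.29 and 0.95 as the 5th and 95th percentile. Replicate 2 was the lowest array at 0.01 μg/L in 175 of the 183, and replicate 4 the lowest at 10 μg/L in 173. The same values over all probes are not given, so these are descriptions. Over the 30 arrays, 175 members had a correlation of 0.9 or more with the median of the 183. So did 707 probes outside the list, and moving together was thus not particular to the members. The median SD within a group over all 194 members was 3.23 in the control, 0.95 at 0.01 μg/L, 0.87 at 0.1 μg/L, 0.45 at 1 μg/L and 0.49 at 10 μg/L. Over all probes of the array these medians were 0.45, 0.34, 0.45, 0.30 and 0.35. Over the 4 other controls the median SD of the members was 1.41, against 0.37 over all probes. The pools at 1 and 10 μg/L lay closest together.

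The step from 0.1 to 1 μg/L was upward in 188 of 194 members, with a median log2 difference of 1.16, against -0.03 over all probes. Both means entered the ranking and the rule asked for a mean at 1 μg/L no lower than at 0.01 μg/L, so the direction and the calls of this step are given as a description. In the limma fit to all 30 arrays, no member was called higher (5 at an unadjusted p below 0.05, against 1.6% of all probes called) and none lower (1 unadjusted, 4.66% of all probes called). The spread in that fit is shared with the controls, and the median SE of a member was 0.88. In a fit to the 24 exposed arrays alone, chosen after the controls had been seen, the median SE was 0.41 and 67 members were called higher (34.5%, against 4.06% of all probes), with differences from 0.68 to 2.06, while none was called lower (5.99% of all probes). All 67 belonged to the larger set. Without control replicates 2 and 6 the count was 27, with 2370 of all 60195 probes called higher, against 964 with all 30 arrays. Within slides the median difference was 0.90, 1.83, 0.55 and 1.67 on slides 1 to 4, with 185 or 186 members higher on each.

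TC131225 had the largest difference of the 67. It was between 9.68 and 13.52 at 0.1 μg/L with a median of 10.72, and between 12.78 and 13.91 at 1 μg/L with a median of 13.22. These ranges overlap, since a single pool at 0.1 μg/L reached the range at 1 μg/L. The difference was 2.06, with an SE of 0.62 over the 24 arrays and of 1.19 over all 30. In 7 members all 6 arrays at 1 μg/L were above all 6 at 0.1 μg/L (3.61%, against 1.13% of all probes). They were CUST_21983_PI425536763, TC128022, TC128406, TC119972, TC120908, TC110440 and TC108705, named after their values had been seen, and 6 of them were among the 67. TC128406 lay between 12.37 and 14.03 at 0.1 μg/L and between 14.24 and 14.97 at 1 μg/L, a difference of 1.26 (SE 0.29 over the 24 arrays).

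The rule set no order between 1 and 10 μg/L, and no change was called in this step. Both means entered the ranking, and the rule asked for a mean of at least 8 at 10 μg/L. The direction of this step is therefore given as a description. The median log2 difference was 0.30, and 178 of 194 were higher at 10 μg/L. No member was called in limma in either direction, with 30 arrays (0 higher and 2 lower at an unadjusted p below 0.05) or with the 24 exposed arrays (1 and 4), and 0.00166% of all probes were called higher and as many lower with 30 arrays. Without control replicates 2 and 6 the counts were also 0. Within slides the median was 0.45, -0.77, 1.03 and 0.43, so that slide 2 had the opposite sign. With the 24 arrays the 95% interval of a member had a median half-width of 0.84, and its upper end reached 1, a doubling, in 143 members. In no member did the arrays at 10 μg/L all lie above those at 1 μg/L (0.131% of all probes).

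From 0.01 to 0.1 μg/L none of the 183 members was called. The means of both groups entered the rule and the sets were separated after their values had been seen, so the calls of this step are a description and nothing is read from them. Their median difference was -0.10, and 67 of them were higher. The 8 members called higher in this step (4.12%, against 6.03% of all probes, with 0 lower against 4.45%, and 4.94% in the fit to 24 arrays) all belong to the 11 others. For this step the within-slide medians of all members were 0.39, 0.28, -0.39 and -0.84 on slides 1 to 4.

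**Figure D4:**
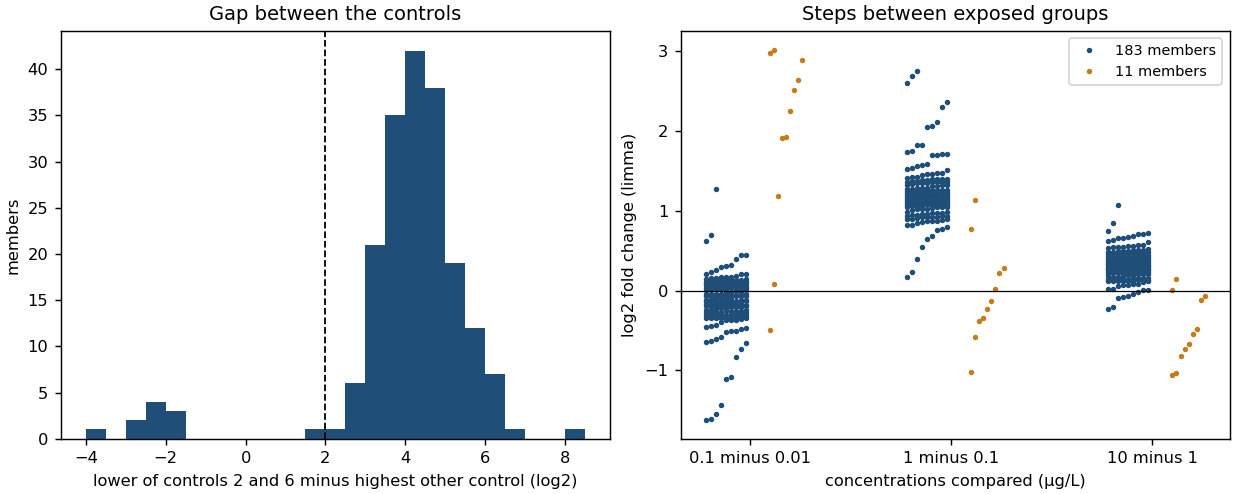
Left, the gap between the lower of control replicates 2 and 6 and the highest other control for each of the 194 members, with a dashed line at 2. Right, log2 fold changes of the members between neighbouring concentrations, 183 in blue and 11 in orange, with medians of -0.10, 1.18 and 0.30 in the larger set and 2.25, -0.14 and -0.54 in the smaller.

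The 11 other members formed a second pattern, and they were separated after their values had been seen. In 9 of them the controls were low without the split, and the group means went up at 0.01 μg/L, went up again at 0.1 μg/L and then stayed near that level or went down. They were TC121656, CUST_4360_PI425536763, CUST_12278_PI425536763, TC129570, CUST_7379_PI425536763, TC123398, TC101802, TC127725 and TC118046. Over all 11, the array medians at the lowest, the middle and the highest array were 5.79, 6.63 and 8.20 in the control, 8.41, 9.23 and 9.70 at 0.01 μg/L and 10.54, 11.21 and 11.39 at 0.1 μg/L. At 1 μg/L they were 10.42, 10.90 and 11.36, and at 10 μg/L 9.73, 10.09 and 10.99. No control array overlapped with an exposed one by this measure. From 0.01 to 0.1 μg/L the differences of the 9 ran from 1.19 to 3.02, and 8 of them were called in limma, the exception being TC127725. The 9 were grouped by their rise in this step, so these calls are a description. Over the whole list they are 4.12% of the members, against 6.03% of all probes. On replicate 1 at 0.1 μg/L, TC127725 was at 7.46, against 10.69 to 11.34 on the rest, and it lies in the dim middle of that array. Without that array 9 members were called higher in this step, with 3317 of all probes, which is a description as well.

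TC118046, one of the last inside the rank limit and among the 3 with the smallest control spread beside CUST_12278_PI425536763 and TC101802, went from 5.87 to 8.57 in the control with a median of 6.76. It was between 8.36 and 10.32 at 0.01 μg/L, between 11.50 and 12.38 at 0.1 μg/L, between 10.63 and 11.92 at 1 μg/L and between 9.89 and 11.68 at 10 μg/L. In 7 members (3.61%, against 3.74% of all probes) no array at 0.1 μg/L fell to the range at 0.01 μg/L, and here too the arrays at 0.1 μg/L all lay above those at 0.01 μg/L, with a difference of 2.65 (SE 0.37), and overlapped with those at 1 μg/L. TC129570 had the largest difference in this step, 3.02 (SE 0.47), from 8.41 to 10.48 at 0.01 μg/L to between 12.04 and 12.99 at 0.1 μg/L. From 1 to 10 μg/L, 8 of the 9 were lower, by a median of -0.67, and none of them was called.

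**Figure D5:**
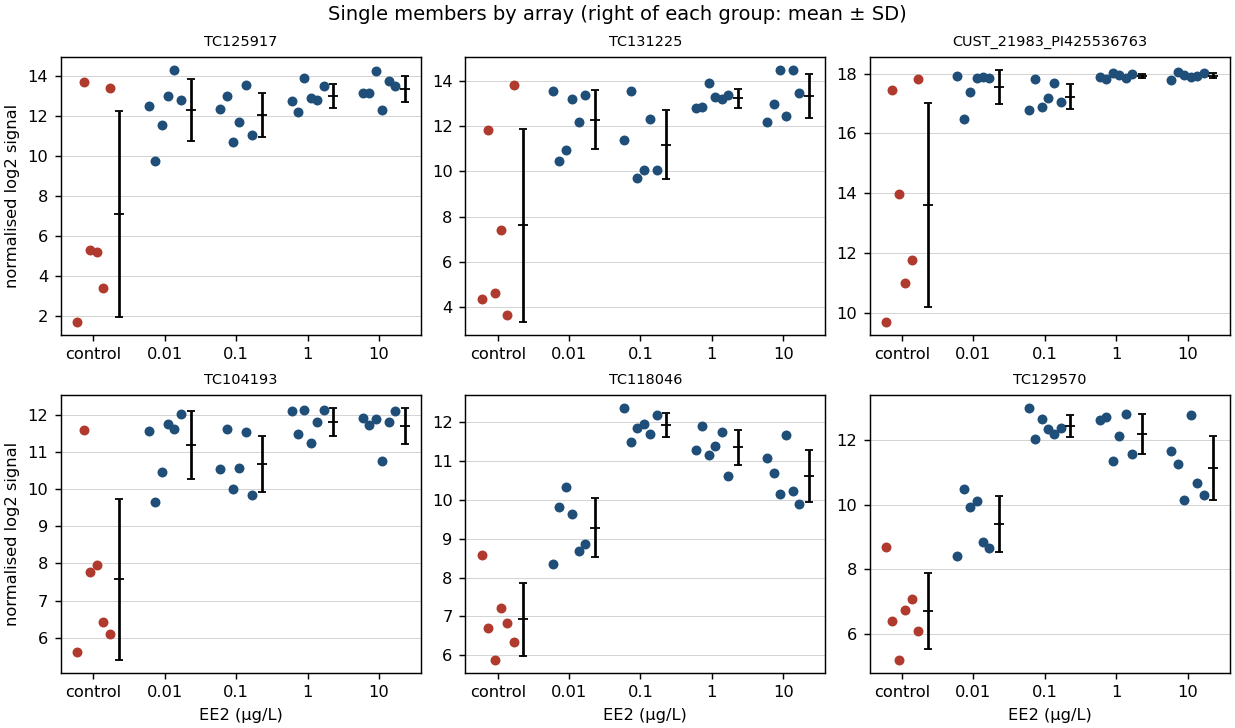
Normalised log2 signal of 6 members on each array (points, in order of replicate) with the mean ± SD of the 6 arrays of each group to the right. TC125917, TC131225 and CUST_21983_PI425536763 show 2 high controls and TC104193 only 1, while TC118046 and TC129570 have low controls and rise further at 0.1 μg/L.

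On many pools these 9 and the larger set went opposite ways. Control replicate 1 was the highest control in 7 of the 9 and the lowest in 149 of the 183. Replicate 4 at 10 μg/L was the highest of its group in 8 of the 9, and the lowest in 173 of the 183. Across the 24 exposed arrays, the deviations of the array medians of both sets from their group means had a Pearson correlation of -0.79. Across all 30 arrays it was -0.61. The sets were separated after their values had been seen, and the shares of all probes are not given. These numbers are therefore descriptions. The 6 probes left out by the rule, TC120776, TC95845, TC95045, CUST_123_PI425536763, TC125012 and TC122002, lacked the control split as well, with gaps between -2.95 and -1.10. Their array medians were 6.43 in the control, 9.47 at 0.01 μg/L and 12.57 at 0.1 μg/L in the middle of the 6 arrays, and their deviations had a correlation of 0.88 with those of the 9 over 30 arrays.

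The remaining pair of members fitted neither pattern in full. TC104193 was high on control replicate 2 alone, at 11.58, and was at 6.10 on replicate 6 and between 5.61 and 7.97 on the others, against 9.65 to 12.01 at 0.01 μg/L. TC129237 was higher on control replicates 2 and 6, at 7.92 and 8.36, than on the others, at 3.65 to 6.21, but with a gap of 1.70.

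Tanks and slides gave no call of their own among the members. In F tests in limma across tanks within a concentration, 0 of 194 members passed (1 at an unadjusted p below 0.05), against 0.00997% of all probes, and across slides 0 passed (1 unadjusted), against 0.0914% of all probes. The spread between tanks is measured there against that between the pools of a tank, which was 7.58 in tank 1, 0.33 in tank 2 and 6.56 in tank 3 of the control by the median of the members. The slide test fits a slide effect common to all groups, with the split controls in its residual spread. It cannot represent a slide difference confined to the controls, and nothing about the split is read from it. Control replicate 4 and replicate 1 at 0.1 μg/L had low values in the middle of the array, which touched some members. On the latter array 8 members were over 2 on the log2 scale below all other arrays of their group, and all 8 lie in the middle 4 of 16 blocks of the array. On the former 5 members were, again all 5 in these blocks, where 52 of the 194 members (26.8%) and 25.4% of all probes lie. Of the 11 other members 6 lie there (54.55%), against 46 of the 183 (25.1%). The levels of the smaller set on these arrays are therefore more open to the low values in the middle.

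By the correlation of the 5 group means with the mean profile of the members, the most similar other probes were CUST_13776_PI425536763, CUST_3978_PI425536763 and TC119930, each with a Pearson correlation above 0.999. With 5 points such values are common, and the changes were smaller, from 11.76 in the control to 12.48 at 10 μg/L for the first of them. Over the 30 arrays its correlation with the median of the 183 members was 0.64. Likeness over the 30 arrays, looked at after the values had been seen, was highest in TC119236, CUST_7913_PI425536763 and TC109112, each at 0.99. TC119236 had a control gap of 2.75 and group means from 12.67 in the control to 14.49 at 0.01 μg/L and 15.69 at 10 μg/L.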

How the data were processed

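Arrays were grouped by the concentration in their labels. The authors scanned the arrays and read them with Feature Extraction 10.7.3.1, and the deposited files hold a background-subtracted signal per spot, which is a linear intensity. A table of log2 values that the authors quantile-normalised over the 30 arrays was deposited as well and was used to choose the members. Its columns matched the scanner files with r of 0.999 or more, 6 of them under another replicate number of the same concentration. The labels name R 2.15.3.

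From the processed signal of 60195 probes, control spots were left out, spots of a probe averaged, log2 taken and arrays quantile-normalised. Group means of all probes were fitted in limma 3.58.1 under R 4.3.3 with lmFit, contrasts.fit and eBayes, without covariates. Benjamini-Hochberg adjustment ran over all probes of a contrast. All adjusted p-values come from limma. Files were read and figures drawn with Python 3.11.15, numpy 2.4.6, pandas 2.3.3 and matplotlib 3.10.9. The fit was tested on simulated data, with the same spread in all groups of a probe and values independent between probes. The members have neither property, so nothing about them is read from that test.

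The members and lists were chosen with earlier results of these data known. The rule for probes given by name takes the first 10 by rank, the 3 called members with the largest rise and fall in each step (none in the fit to 30 arrays), the 3 highest at 10 μg/L, the 3 on either side of the rank limit, the 3 with the largest and the smallest control spread and the 3 other probes most like the members. The number of arrays limits the precision. No gene list was matched to probes, and no sequence is given. Alternatives were the authors' log2 values, the 75th percentile, normexp, a filter on dim probes, slide, tank and replicate blocks, tank means, array weights and arrays left out.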

Additional observations from a re-analysis of the deposited data

Results flagged for a closer look

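Among the members named and the array medians, 140 groups of 6 arrays were examined for a single array far from the others, and 12 were marked, while chance marks about 1 in 20 groups. Replicate 4 at 10 μg/L stood out most often. It was high for the median of the 11 other members, at 10.99 against 9.73 to 10.18 on the rest of its group, and for TC127725, at 11.44 against 9.47 to 10.18. It was low for TC119341, at 12.52, TC125696, at 12.41, TC104193, at 10.75, and TC129237, at 9.07. Replicate 2 at 0.01 μg/L was low for TC127744, at 9.92, and for CUST_21983_PI425536763, at 16.47. Replicate 1 at 0.1 μg/L was low for CUST_7379_PI425536763, at 8.22, and for TC127725, at 7.46, both of which lie in the dim middle of that array. Control replicate 1 was high for TC101802, at 8.33 against 5.79 to 6.73 on the other controls, and replicate 3 at 1 μg/L was low for TC127725, at 10.10 against 10.55 to 10.77.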

How the results depend on the processing

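Of 586 results under other settings, 572 kept their direction and their side of the threshold or, for a count, stayed within 1.5 times, 14 moved and 0 reversed. Many of these are counts against the control, higher and lower, which the rule largely fixed. The tally is therefore no measure of how firm the results are. The count of members higher at 1 than at 0.1 μg/L, 0 with all 30 arrays, was 2 with normexp, 5 with tank means, 4 with array weights, 27 without control replicates 2 and 6, and 67 with the 24 exposed arrays, the last chosen after seeing the data. Over all 60195 probes 964 were called with all 30 arrays, and 802, 447, 6893, 2370 and 2445 in these settings in the same order. Leaving out 1 array gave 0 to 1 members. The count of members lower in this step, also 0, was 1 with array weights and 1 without the arrays with a dim middle, and 0 to 1 with 1 array left out. The count lower at 10 than at 1 μg/L was 0 and became 1 with array weights. In CT1, a contrast that the rule used, the 187 members became 121 with the slide as a block, and 105 to 194 with 1 array left out. For these counts the cause was not tested. Replicate numbers do not pair the arrays, since deviations of same-numbered arrays had correlations from -0.46 to 0.43 with a median of 0.02. With the replicate number as a block 186 members were called in CT1 and 186 in CT2. From 0.01 to 0.1 μg/L 8 were called higher there, with 3719 of all probes. The counts over all probes in the CT1 and CT2 fits named here are not given, and nothing is read from those counts. Pools, not fish, are the replicates, members share pools and may share transcripts, and the low control levels of 69 members are partly set by background.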

Other observations

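The split between the controls was not limited to the members. A further 511 probes had both control replicates 2 and 6 at least 2 on the log2 scale above the other 4 controls, which is 0.852% of the probes outside the list. Their gap had a median of 2.63. In the middle of these probes the level was 10.09 and 10.44 on control replicates 2 and 6, and 6.60, 6.80, 6.63 and 6.58 on replicates 1, 3, 4 and 5. The median of their group means was 7.77 in the control, 9.49 at 0.01 μg/L, 9.23 at 0.1 μg/L, 10.42 at 1 μg/L and 10.62 at 10 μg/L, so that the order of the groups was that of the members. Of the 511, 377 met the conditions of the rule and fell outside the first 200. The share of probes with the split depends on the cutoff of 2. With no minimum gap, control replicates 2 and 6 both lay above the other 4 controls in 16.3% of all probes. The same order held in 184 members. No test was made of these shares. None of the 60 probes that carry the name of a gene or a protein in the smaller custom design had the gap of at least 2. In that design 5 of the 224 probes had it, against 1.15% of all probes. With so few probes nothing is read from these counts.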
